A study of Arabidopsis thaliana with 12 samples.

Results

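The 26S proteasome subunit genes described here are 51 loci of Arabidopsis thaliana, out of 33602 genes in the count tables. They were named as a list of loci annotated as proteasome subunits, and the rule uses no measured value, although the set was proposed with earlier results of these data known. The list holds 12 genes of the 20S alpha ring (PAA to PAG), 11 of the 20S beta ring (PBA to PBG), 11 of the ATPases of the 19S cap (RPT1 to RPT6) and 17 of its other subunits (RPN1 to RPN12a). They encode 31 subunits, of which 20 are encoded by a pair of paralogs and 11 by a single locus. All 51 passed the filter on low counts, as did 21890 of all genes.

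The 26S proteasome degrades proteins that carry ubiquitin chains. Its 20S barrel encloses the proteolytic sites of the beta rings between alpha rings that gate the entrance. The 19S cap recognises ubiquitin, removes it, and unfolds the substrate with a ring of RPT ATPases. In Arabidopsis most subunits have a pair of genes, and a block of proteasome activity is known to induce the subunit genes together through the transcription factors NAC53 and NAC78.

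Transcripts were sequenced from floral buds and open flowers of the primary inflorescences of 3 genotypes, all with the strain label Col-0. The mutant, ask1, carried a Ds element in ASK1, which encodes the SKP1-like adaptor that links F-box proteins to CUL1 in SCF ubiquitin ligases. The controls were plants labelled ASK1 WT, for a wild-type ASK1 locus, and Col-0 itself. Each of the 6 groups of genotype and tissue had 2 libraries of 150-nt paired-end reads, from plants grown under 16 h of light at 21 °C and 8 h of dark at 19 °C and harvested 5 h after dawn. The age of the plants, the number of plants per library and whether replicates came from separate plants were not stated, so p-values measure only the spread between these libraries, which may be technical. In bulk tissue, fewer cells of a type and less RNA per cell cannot be told apart.

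Libraries held 13780265 to 23426466 counts in genes, so that a count of 0 would allow up to 0.128 to 0.218 CPM, the count relative to the scaled library total. The ASK1 transcript stood at 10.1 to 50.9 CPM in the 4 ask1 libraries and at 247 to 310 CPM in the 8 control libraries, a log2 fold change of -3.68 ± 0.41 in buds against ASK1 WT (edgeR adjusted p = 7.77e-05). Tapetum genes (5 of 5 measured) summed to 345 to 433 CPM in buds. Floral organ identity genes (5 of 5) summed to 854 and 869 CPM in ask1 buds against 877 to 925 CPM in control buds, and to 606 to 808 CPM in ask1 open flowers against 541 to 601 CPM. Against ASK1 WT over 12 libraries, 2 of the 5 fell in buds and 2 rose in open flowers, where 25.9% and 30.0% of all tested genes changed. Their log2 fold changes ran from -0.575 to 0.391 in buds and from 0.096 to 0.953 in open flowers. Without replicate 1 of ask1 open flowers, described below, they ran from -0.521 to 0.445 and from -0.302 to 0.685. Mature pollen and pollen tube genes (7 of 7, none at 0) also stood apart by genotype. They summed to 60.3 and 176 CPM in ask1 buds against 1800 to 2150 CPM in control buds, and to 699 and 727 CPM in ask1 open flowers against 5560 to 6820 CPM in control open flowers. Meiocyte genes (4 of 4) summed to 22.6 and 22.8 CPM in ask1 buds against 26.8 to 30.1 CPM in control buds. Senescence genes (3 of 3) summed to 105 and 234 CPM in ask1 open flowers against 616 to 1430 CPM in control open flowers. The part of these cell types in the proteasome results below was not tested.

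Replicate 1 of ask1 open flowers stood apart from the other 11 libraries. Its ratio to the mean of all libraries fell with exon length across genes (Spearman's rho -0.446), against 0.0297 to 0.128 in the others. The proteasome genes followed that trend. Between the replicates of ask1 open flowers their log2 ratio had a median of 0.489 and ran from -0.633 to 1.04, with 46 of 51 higher in replicate 1, and it fell with exon length (rho -0.698 over 51 genes). In the other 5 groups the median size of the same log2 ratio was 0.0272 to 0.0843. Most 20S genes, with exons of 872 to 1556 nt, lay high in that library, and the RPN1 and RPN2 genes, with exons of 3091 to 3517 nt, lay low. The comparisons that use it are therefore given over 12 libraries and again over the 11 libraries without it, a choice made after its values were seen.

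**Figure D1:**
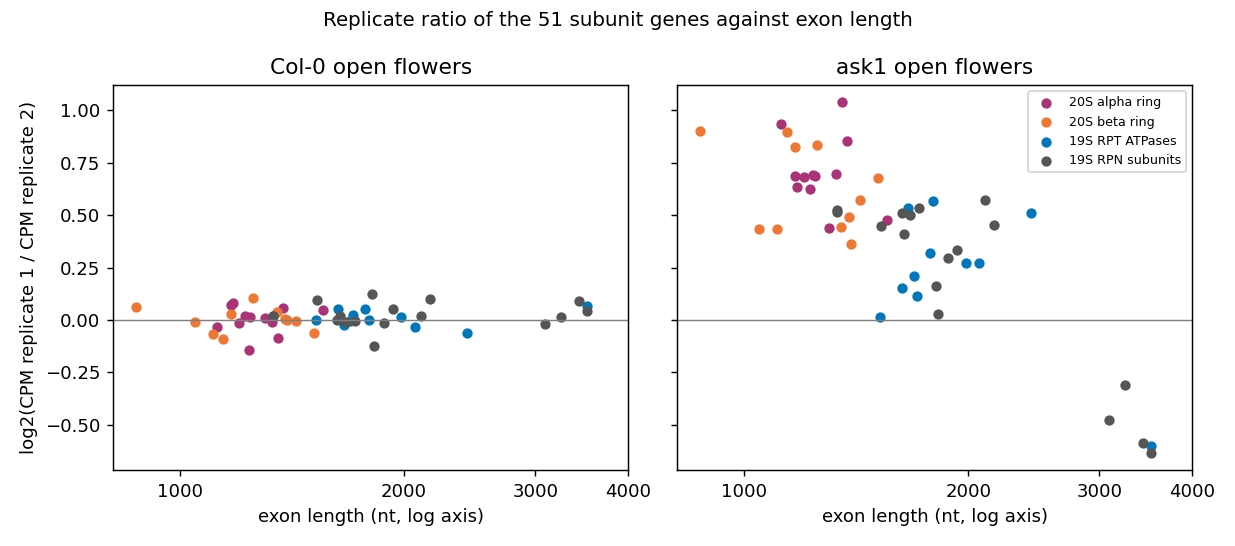
Log2 ratio of CPM between replicates 1 and 2 (vertical axis) against exon length in nt (horizontal log axis) for the 51 subunit genes, in Col-0 open flowers (left) and ask1 open flowers (right), with points coloured by subcomplex. Ratios lie near 0 at all lengths in Col-0 and run from 1.04 down to -0.633 in ask1.

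The subunit genes were abundant and among the less variable genes of these flowers. Summed over the 51 genes, the level was 2984 to 3220 CPM per kb of exon in 11 libraries and 4155 in replicate 1 of ask1 open flowers. Over the 8 control libraries, which span both tissues, the median standard deviation of a subunit gene was 0.0677 on the log2 CPM scale, against 0.244 over all tested genes. All 51 lay below that all-gene median, from RPN5a at 0.0279 to RPT6b at 0.18. Over the 11 libraries the medians were 0.0954 and 0.303, and over all 12 they were 0.163 and 0.35. Per kb of exon, the genes ranked from the 59.6th percentile (RPN8b) to the 96.1st percentile (RPT2a) of the 21826 tested genes with a known exon length. The spread over all tested genes was not matched to these levels.

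With paralogs summed, the 31 subunits lay within 3.11-fold of each other in the controls. Levels below are means ± SD of CPM per kb over the 8 control libraries. The highest were the ATPase subunits RPT2 at 154 ± 9.27 and RPT1 at 139 ± 5.51, followed by the alpha ring subunit PAD at 131 ± 6.17, and these neighbours in the order overlapped in their ranges over libraries. The ATPases were spread over the order, with RPT3 at 88.6 ± 2.62 and RPT6 at 85.2 ± 5.16 below the median subunit at 96.7. The catalytic beta subunits PBB, PBE and PBA stood at 122 ± 2.98, 103 ± 5.83 and 94.1 ± 3.47. RPN11, the deubiquitinase of the lid, stood at 112 ± 11.2 and the ubiquitin receptor RPN10 at 96.7 ± 4.38. The lowest were the lid subunits RPN9 at 59.7 ± 2.6 and RPN6 at 49.5 ± 3.57, whose ranges did not overlap (58.2 to 65.9 against 44 to 53.7). Subunits with a single locus had a median of 92.7 and those with a pair of loci 100 CPM per kb.

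Within pairs the paralogs were unequal. In the controls the gene listed first (a, or 1) was the higher in 17 of 20 pairs. The genes of 5 pairs lay within 1.5-fold of each other, and those of 6 differed by more than 3-fold. PBD1 and PBD2 differed by 1.01-fold and RPT6a and RPT6b by 1.03-fold, whereas RPN8a exceeded RPN8b by 4.5-fold and RPT1a exceeded RPT1b by 5.31-fold.

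**Figure D2:**
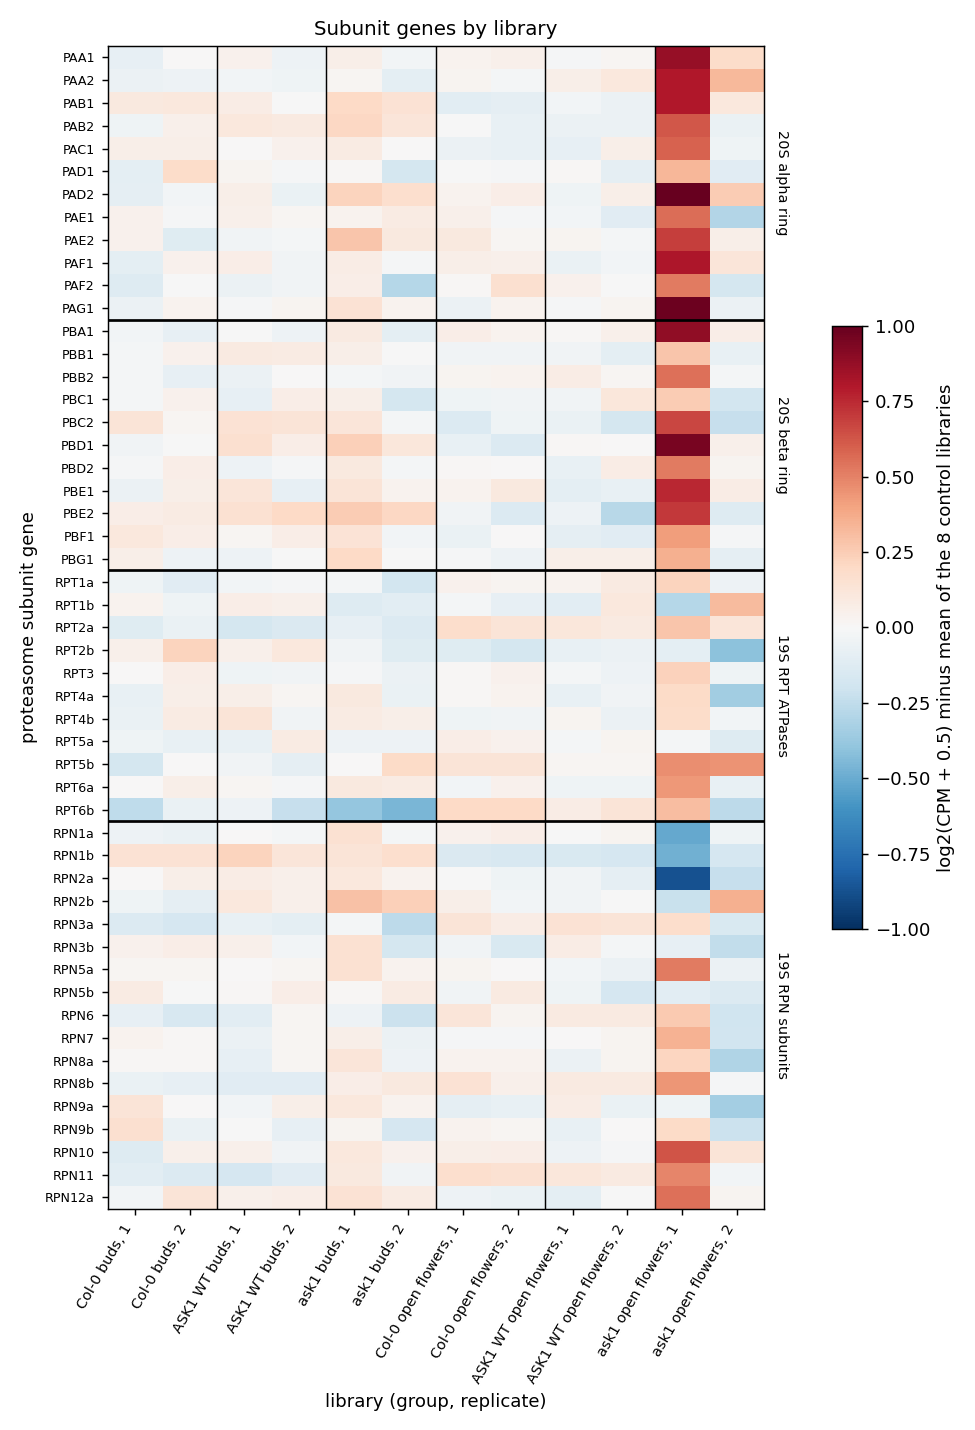
Log2(CPM + 0.5) of each subunit gene (rows, grouped by subcomplex) in each library (columns, by tissue and genotype), as the difference from the mean of the 8 control libraries. Most cells are close to 0, and replicate 1 of ask1 open flowers is red in the 20S genes, with PAD2 at 94.2 CPM, and blue in RPN2a, at 124 CPM.

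Each ask1 tissue was compared with the same tissue of each control. In buds no subunit gene passed the test over 12 libraries, and small rises outnumbered falls over 11. Over 12 libraries 0 of 51 changed in ask1 buds against ASK1 WT in edgeR's quasi-likelihood test with Benjamini-Hochberg adjustment over all genes, while 25.9% of all tested genes did. The count was also 0 against Col-0, where 21.1% of all genes changed. Unadjusted p-values under 0.05 numbered 0 in both comparisons, and DESeq2 also called 0. Removing a length trend over the same 12 libraries did call subunit genes in both comparisons, as the last section gives. The median SE of the 51 genes in each comparison was 0.16 over 12 libraries and 0.074 over 11, so small changes may be missed over 12. The median log2 fold changes of the 51 genes were 0.019 and 0.024 on the log2 CPM scale, with values from -0.284 (RPT6b) to 0.219 (PAE2) against ASK1 WT. The same medians over all tested genes were -0.051 and -0.054.

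In open flowers over 12 libraries, 6 of 51 subunit genes rose against ASK1 WT and 0 fell, where 30.0% of all genes changed in either direction. They were the alpha ring genes PAA1, PAA2, PAB1, PAD2 and PAF1 and the ATPase gene RPT5b. Against Col-0, with the same ask1 libraries, 5 rose and 0 fell (27.2% of all genes changed), namely PAA2, PAB1, PAD2, RPT5b and the beta ring gene PBD1. PAD2 had the largest change, with 94.2 and 49 CPM in ask1 open flowers, 39.8 and 42.6 in ASK1 WT and 42 and 43 in Col-0. Both ask1 values lay above the 4 control values, but replicate 1 was far above replicate 2. The log2 fold change of PAD2 was 0.80 ± 0.23 (SE, n = 2 libraries a group) against ASK1 WT (edgeR adjusted p = 0.0238) and 0.75 ± 0.23 against Col-0 (adjusted p = 0.034).

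RPT5b passed against ASK1 WT both with and without the deviating library. This gene encodes an ATPase of the cap and stood at 52.1 and 51.6 CPM in ask1 open flowers, at 38.3 and 38.2 in ASK1 WT and at 41.3 in both Col-0 libraries. The ask1 replicates were nearly equal and above all controls. Its log2 fold change against ASK1 WT was 0.44 ± 0.11 over 12 libraries (edgeR adjusted p = 0.0137) and 0.38 ± 0.11 over 11 (adjusted p = 0.0139). Against Col-0 it was 0.33 ± 0.11 over 12 libraries (edgeR adjusted p = 0.0499) but did not pass over 11, at 0.26 ± 0.11 (adjusted p = 0.0786).

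Without replicate 1 of ask1 open flowers the picture in open flowers turned from rises to a mixture with more falls. The remaining ask1 library of that tissue was assumed to vary like the other groups. Against ASK1 WT 3 genes rose and 9 fell, beside 33.5% of all genes called. RPT1b, RPT5b and RPN2b rose. The ATPase genes RPT2b, RPT4a and RPT6b fell, as did PAE1 and the lid or base genes RPN3a, RPN6, RPN7, RPN8a and RPN9a. Against Col-0 3 rose and 11 fell (30.1% of all genes). Those that rose were PAA2, RPT1b and RPN2b, and the deepest falls were in RPT6b, RPT4a, RPN8a, PAE1, RPN6 and RPT2b. The members' median log2 fold change moved from 0.166 to -0.084 against ASK1 WT and from 0.142 to -0.119 against Col-0. The same medians over all tested genes moved from 0.008 to -0.048 and from 0.013 to -0.043. Of the 6 calls against ASK1 WT over 12 libraries, 1 (RPT5b) was called again over 11. Leaving out replicate 2 in place of replicate 1 gave 37 calls against ASK1 WT and 36 against Col-0, a larger share of the 51 than the 52.8% and 51.4% of all genes called in that fit.

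In buds the fit over 11 libraries had smaller errors and gave more calls, here and over all genes. Against ASK1 WT 6 subunit genes rose and 1 fell, beside 41.4% of all genes called. PAB1, PAD2, PAE2, RPN2b, RPN8b and RPN11 rose and RPT6b fell. Against Col-0 7 rose and 0 fell (38.0% of all genes), namely PAB2, PAD2, PAE2, PBD1, RPT5b, RPN2b and RPN11. The largest of these changes was that of RPN2b against Col-0, at 1.31-fold. PAE2 stood at 66.6 and 58.9 CPM in ask1 buds, 53.6 and 54.2 in ASK1 WT and 56.8 and 50.6 in Col-0, without overlap, and its log2 fold change against ASK1 WT was 0.27 ± 0.09 (edgeR adjusted p = 0.0189). RPN11 stood at 160 and 146 CPM in ask1 buds against 133 to 139 in the 4 control libraries, with a log2 fold change of 0.23 ± 0.07 against ASK1 WT (edgeR adjusted p = 0.0145). Over 12 libraries neither passed (PAE2 0.22 ± 0.18, RPN11 0.18 ± 0.16). Over these 11 libraries the share of subunit genes called was below that of all genes in both tissues. With a length trend also removed it was above it in buds, with 33 of 51 against ASK1 WT (50.1% of all genes) and 28 against Col-0 (44.1%).

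**Figure D3:**
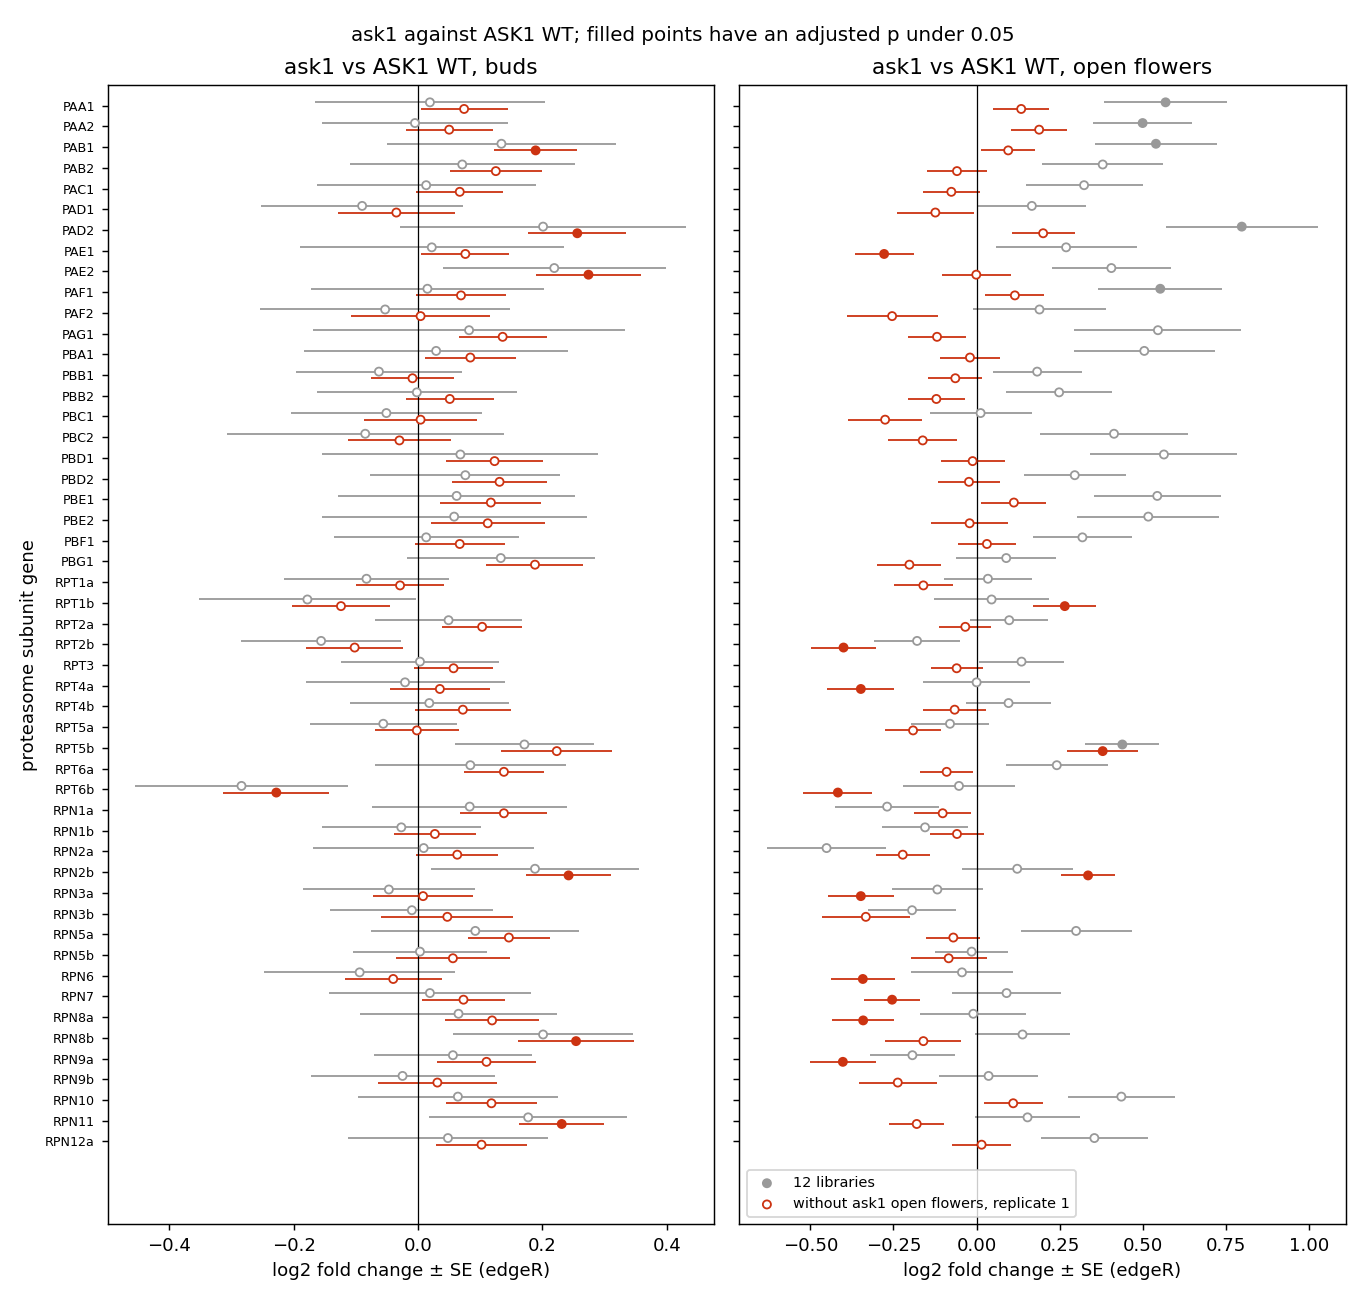
Log2 fold change with its SE (horizontal axis) of each subunit gene (vertical axis) in ask1 against ASK1 WT, in buds (left) and open flowers (right). Grey points are the fit over 12 libraries, red points the fit without replicate 1 of ask1 open flowers, and filled points have an adjusted p under 0.05. In open flowers the alpha and beta ring genes move from medians of 0.452 and 0.318 to -0.03 and -0.023.

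RPN2b, a paralog of the scaffold subunit of the cap, rose in ask1 in all 4 comparisons over 11 libraries. It stood at 98.3 and 94.7 CPM in ask1 buds, at 86.4 and 82.9 for ASK1 WT and at 77.9 and 75.3 for Col-0. Ask1 buds were above all control buds. In open flowers it stood at 68.5 and 103 CPM in ask1, 78.1 and 79.8 in ASK1 WT and 83.5 and 78.5 in Col-0, so that the ask1 replicates fell on either side of the controls. Over 11 libraries its log2 fold change was 0.24 ± 0.07 in buds and 0.34 ± 0.08 in open flowers against ASK1 WT (edgeR adjusted p = 0.0114 and 0.00676). Against Col-0 it was 0.39 ± 0.07 and 0.29 ± 0.08 (edgeR adjusted p = 0.000534 and 0.0173). Over 12 libraries it passed in none of the 4 comparisons (0.19 ± 0.17 in buds and 0.12 ± 0.17 in open flowers against ASK1 WT).

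RPT6b, which encodes an ATPase of the cap, was the most variable member over the controls and the deepest fall in ask1 open flowers over 11 libraries. It stood at 57.2 and 54.3 CPM in ask1 buds and at 62.5 to 72 CPM in the 4 control bud libraries, without overlap. In open flowers it stood at 92.5 and 62.3 CPM in ask1, 78.6 and 82 in ASK1 WT and 85.9 and 86 in Col-0. There replicate 1 lay above all controls and replicate 2 below them. Over 11 libraries its log2 fold change against ASK1 WT was -0.23 ± 0.09 in buds (edgeR adjusted p = 0.0452) and -0.42 ± 0.10 in open flowers (adjusted p = 0.00752). Over 12 libraries the values were -0.28 ± 0.17 and -0.05 ± 0.17, and neither passed.

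Counting genes with no overlap needs no model of the spread. In buds both ask1 libraries lay above all 4 control libraries for 10 of 51 subunit genes and below them for 3, against 22.5% and 32.1% of all tested genes. The 3 below were RPT1b, RPT2b and RPT6b. In open flowers 9 lay above and 3 below, against 25.2% and 24.5% of all genes. The 3 below were RPT5a, RPN1a and RPN2a, of which RPN1a and RPN2a are the long genes that were low in replicate 1. None of these shares exceeded that of all genes.

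Between the control genotypes no subunit gene passed. Against Col-0, 0 of 51 changed for ASK1 WT at the bud stage (0.32% of all genes) and 0 at the open stage (0.0411%), with no unadjusted p under 0.05 in either and 0 calls by DESeq2. Over 11 libraries both counts were again 0, beside 2.97% and 0.16% of all genes. The highest and lowest log2 fold changes in buds were 0.145 and -0.091.

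By subcomplex, the alpha ring genes summed to 719.6 to 793.2 CPM per kb in 11 libraries and to 1230 in replicate 1 of ask1 open flowers. The beta ring summed to 686.6 to 762.1 in the 11 and to 1048 in that library. The RPT genes summed to 668 to 735.5 and to 811.2, and the RPN genes to 853.9 to 971 and to 1066. The balance between subcomplexes was steady: the alpha ring held 23.8% to 25.2% of the summed level in the 11 libraries and 29.6% in replicate 1 of ask1 open flowers, and the RPN genes held 28.6% to 30.2% and 25.7%. In buds, the median log2 fold changes against ASK1 WT over 12 libraries were 0.021 for the alpha ring, 0.029 for the beta ring, -0.021 for the RPT and 0.048 for the RPN genes, and over 11 libraries 0.075, 0.084, 0.035 and 0.102. In open flowers over 12 libraries they were 0.452, 0.318, 0.045 and -0.01, an order that follows the exon lengths of the subcomplexes (medians of 1240.5, 1253, 1775 and 1820 nt). Over 11 libraries the open-flower medians were -0.03, -0.023, -0.09 and -0.18, against -0.048 over all tested genes.

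The make-up of several paralog pairs differed between ask1 and both controls. The share of a pair is the percentage of its summed CPM per kb that comes from the gene listed second, so scaling between libraries cancels. The 20 pairs were tested in 2 comparisons by two-sided exact permutation of the libraries, within tissue for genotype and within genotype for tissue. The p-values are not adjusted over the pairs. In ask1 against both controls 10 of 20 pairs had a p under 0.05, and 7 did over 11 libraries. In 5 of these pairs both ask1 libraries lay beyond all 4 control libraries, in the same direction, in each tissue, and they share the smallest p this design allows (exact permutation p = 0.00444). Shares of other paralog pairs in the genome were not computed. For single genes, as levels, 22.5% and 32.1% of all tested genes lay above or below the controls without overlap in buds, and 25.2% and 24.5% did in open flowers, so nothing particular to the proteasome is read from the count.

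In the RPN2 pair, RPN2b (AT1G04810) held 29.2% and 29.4% in ask1 buds, and 24.6% to 27% in control buds. Among open flowers it held 36.1% and 35.4% in ask1, and 26.6% to 27.8% in the controls. The deviating library lay within 1 percentage point of its replicate here, and the exons of RPN2a (AT2G32730) and RPN2b sum to 3517 and 3435 nt. The mean difference from the controls was 5.94 percentage points, and 5.77 over 11 libraries. With both genes summed, RPN2 stood at 97.9 and 93.8 CPM per kb in ask1 buds against 87.2 to 93.2 in control buds, and at 55.2 and 84.9 in ask1 open flowers against 83.6 to 88.6.

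In the RPT6 pair the ask1 shift went the other way. The share of RPT6b was 40.9% and 39.9% in ask1 buds against 44.8% to 47.8% in control buds, and 46.9% and 45.9% in ask1 open flowers against 51.1% to 53% in control open flowers. All 4 ask1 values lay below the controls of the same tissue, with a mean difference of -5.74 percentage points, and -5.99 over 11 libraries. RPT6a (AT5G19990) and RPT6b (AT5G20000) lie in tandem on chromosome 5, 1317 bp apart, and were the only pair of the 20 with identical stretches of 100 nt in their exons. The 50-nt stretches they share make up 6.09% of those of RPT6a and 8.32% of those of RPT6b, so reads there may have been assigned to neither or either gene.

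PAD2 and PAE2, minor and equal partners in their alpha ring pairs, gained share in ask1. The share of PAD2 was 31% and 33% in ask1 buds against 24.9% to 28.3% in control buds, and 41.3% and 33.2% in ask1 open flowers against 27.1% to 29.8%. The mean difference was 6.77 percentage points over 12 libraries and 4.75 over 11. The share of PAE2 was 55.6% and 51.8% in ask1 buds against 49.6% to 51.5%, and 53.7% and 57.6% in ask1 open flowers against 52% to 53.2%, a mean difference of 3.2 percentage points, and 4.15 over 11 libraries. The ask1 replicates of PAE2 differed by more than the gap between the lower of them and the controls.

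RPT2b, the minor partner of an ATPase pair, lost share in ask1. It held 24% and 23.6% of the pair in ask1 buds against 25.5% to 27.2% in control buds, and 19.1% and 17.4% in ask1 open flowers against 19.8% to 21.5%. The mean difference was -2.48 percentage points, and -2.91 over 11 libraries. The other 5 pairs under 0.05 overlapped the controls in at least 1 tissue. RPT5b gained 4.07 and RPN8b 1.7 percentage points (exact permutation p = 0.00889 for each), and both passed again over 11 libraries (p = 0.0267 for each). PAF2 differed by -2.8 (exact permutation p = 0.0178), PBD2 by -3.14 and RPN5b by -1.93 percentage points (p = 0.0489 for each). Over 11 libraries these 3 did not pass (exact permutation p = 0.0533, 0.28 and 0.253). Exons of 15 members overlap a gene on the opposite strand, and the strand used in counting was not stated, so reads there cannot be assigned with certainty. The overlap covers 65.1% of the exons of PAF2, 16.1% of RPT1a, 15.7% of PBD2, 13.2% of RPN5a and 12.5% of PBF1, and at most 7.33% in the other members, among them PAD2, RPT5b and RPN11.

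**Figure D4:**
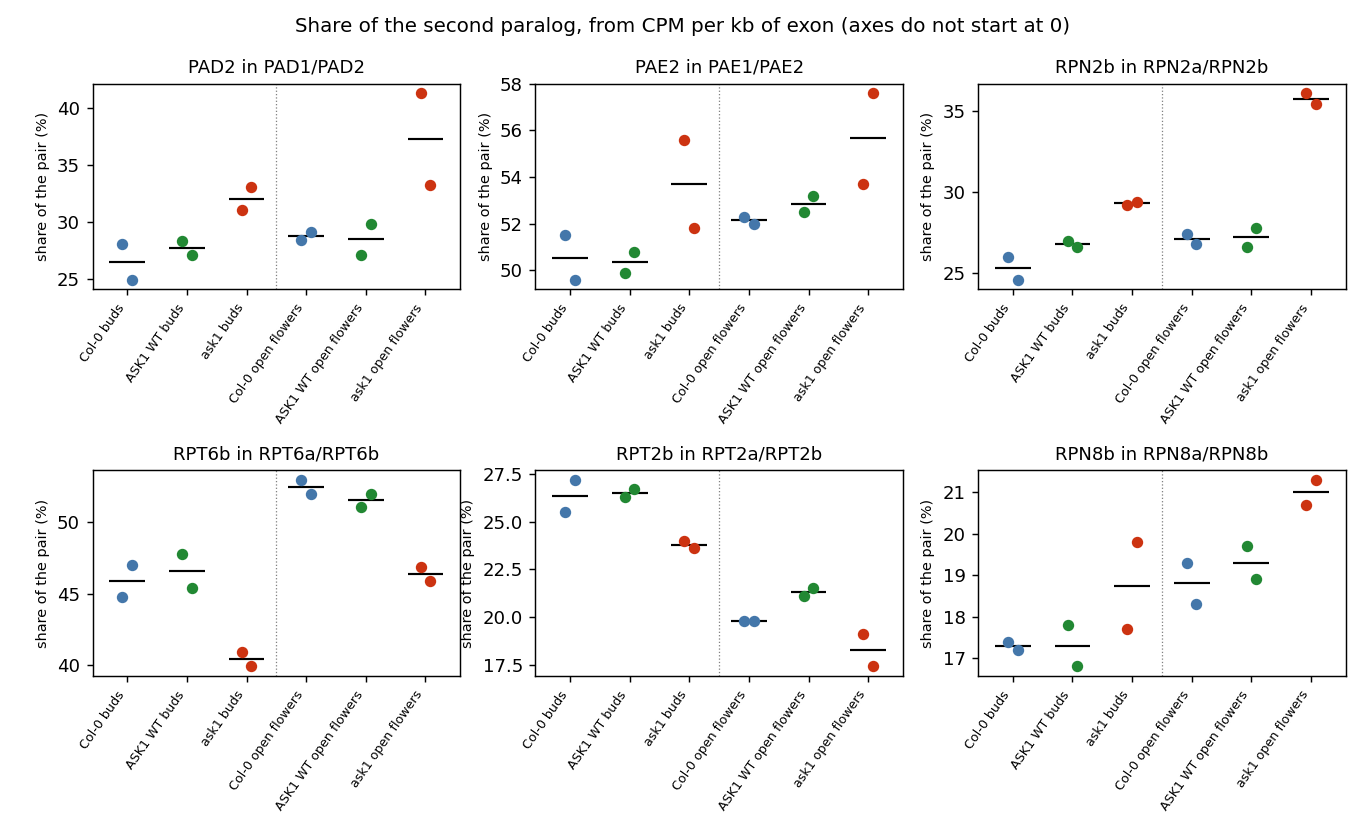
Share of the second paralog in 6 pairs (vertical axis, percent of the summed CPM per kb of exon, not starting at 0) by group, with a point per library, a bar at the mean, and buds left of the dotted line. RPN2b reaches 36.1% in ask1 open flowers, and RPT6b is lower in ask1 within each tissue, with 40.9% and 39.9% in buds.

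The promoters of the subunit genes were searched for a known element. NAC53 and NAC78 bind a proteasome-related element with the core TGGGC, and its presence was counted on both strands in the 250 nt before each annotated start (TAIR10.1, RefSeq annotation). It was found in 25 of 51 subunit promoters (49%) and in 22.7% of 27443 promoters of all protein-coding genes. The longer form TGGGCC, each instance of which holds a TGGGC, was found in 19 (37.3%) and in 13.7%. A match is a description of the letters and not a binding site. The windows of RPN2 and RPT6 are printed because both pairs shifted share in ask1 and their windows hold no exon of another gene. Capitals mark TGGGC or its reverse complement, all sequences run 5′ to 3′ on the strand of the gene, which is the plus strand for all 4, and the windows lie at chr2:13879709-13879958 for RPN2a, chr1:1349830-1350079 for RPN2b, chr5:6751548-6751797 for RPT6a and chr5:6756383-6756632 for RPT6b.
RPN2a: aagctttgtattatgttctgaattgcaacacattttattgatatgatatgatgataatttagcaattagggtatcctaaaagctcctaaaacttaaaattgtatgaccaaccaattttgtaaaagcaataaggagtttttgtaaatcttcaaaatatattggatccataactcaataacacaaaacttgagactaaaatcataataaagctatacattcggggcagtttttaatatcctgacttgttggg
RPN2b: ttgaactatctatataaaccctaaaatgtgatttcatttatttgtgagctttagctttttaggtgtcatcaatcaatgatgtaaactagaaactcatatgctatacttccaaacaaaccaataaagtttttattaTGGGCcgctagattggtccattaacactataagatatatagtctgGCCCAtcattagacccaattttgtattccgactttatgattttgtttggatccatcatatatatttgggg
RPT6a: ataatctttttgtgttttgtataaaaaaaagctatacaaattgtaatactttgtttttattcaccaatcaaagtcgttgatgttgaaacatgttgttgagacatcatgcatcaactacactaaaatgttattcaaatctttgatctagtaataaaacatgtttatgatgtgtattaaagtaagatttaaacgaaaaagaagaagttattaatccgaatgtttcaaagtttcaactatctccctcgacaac
RPT6b: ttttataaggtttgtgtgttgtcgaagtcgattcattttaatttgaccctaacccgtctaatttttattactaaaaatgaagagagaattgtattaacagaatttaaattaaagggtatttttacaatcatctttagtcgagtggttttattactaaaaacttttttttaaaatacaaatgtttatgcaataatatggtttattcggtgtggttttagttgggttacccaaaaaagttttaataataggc
RPN2b has 2 matches, the nearest 70 nt from the start, and RPN2a, RPT6a and RPT6b have 0 in these windows. The number of matches did not follow the direction of the share across pairs. PAD2, which gained share, has 2 and PAD1 has 3, PAE2, which gained, has 0 and PAE1 has 1, and RPT2b, which lost share, has 0 and RPT2a has 3. Exons of other genes fill 183 of the 250 nt in the window of PAD2, 239 in PAE2, 174 in RPT2b and 96 in RPT2a. They fill 1 nt in PAD1 and 0 in PAE1. A part of the element in the shares was not tested.

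Between tissues the subunit genes of the controls moved little. Over 12 libraries 0 of 51 changed between open flowers and buds in ASK1 WT, where 35.3% of all genes did, and 0 in Col-0, where 35.8% did. In each genotype 2 had an unadjusted p under 0.05, and DESeq2 called 1. Over 11 libraries 6 rose and 2 fell in ASK1 WT (49.5% of all genes) and 11 rose and 2 fell in Col-0 (49.5%). These comparisons share no library, and 6 genes were called in both with the same sign. RPT2a, RPT6b, RPN3a, RPN8b and RPN11 were higher in open flowers and RPN1b was lower. The share of all genes called in both was not computed, so nothing particular to the proteasome is read from that count.

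RPN11 showed the tissue difference in each control library. It stood at 133 and 138 CPM (ASK1 WT) and 139 and 136 CPM (Col-0) in buds, and at 162 and 159 CPM (ASK1 WT) and 168 and 166 CPM (Col-0) once flowers had opened. Over 11 libraries its log2 fold change was 0.31 ± 0.07 in ASK1 WT and 0.35 ± 0.07 in Col-0 (edgeR adjusted p = 0.00187 and 0.000704). RPT2a rose from 170 to 183 CPM in control buds to 204 to 217 CPM in control open flowers, by 0.33 ± 0.06 in ASK1 WT (edgeR adjusted p = 0.000811). RPN1b fell from 115 to 124 CPM to 94 to 95.6 CPM, by 0.28 ± 0.07 on the log2 scale in ASK1 WT (edgeR adjusted p = 0.0034). Over the 4 control libraries of each tissue, 11 subunit genes were higher in every open-flower library and 8 were lower, against 27.2% and 27.8% of all genes.

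**Figure D5:**
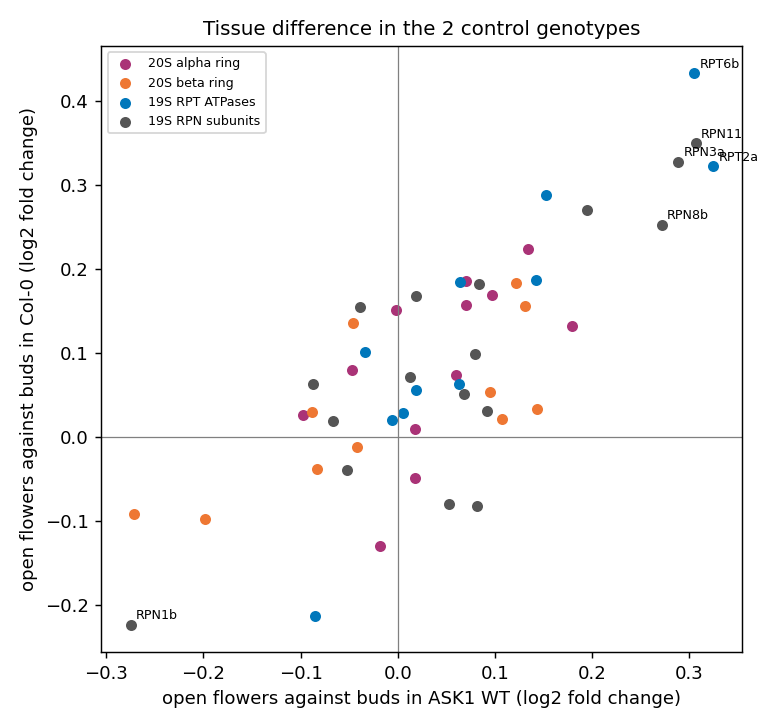
Log2 fold change between open flowers and buds in ASK1 WT (horizontal axis) and in Col-0 (vertical axis) for the 51 subunit genes, coloured by subcomplex, from the fit over 11 libraries. The 6 named genes passed the test in both genotypes, with RPT6b at 0.31 and 0.43.

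In ask1, open flowers differed from buds in 6 subunit genes over 12 libraries (37.7% of all genes). PAA1, PAA2, RPT5b and RPT6b rose, and the long genes RPN1b and RPN2a fell. Over 11 libraries 3 rose and 11 fell (41.3% of all genes), and 4 of the 6 genes were called in both fits. PAA2, RPT1b and RPT5b rose, and the deepest falls were in RPN9a, RPT4a, PBE2, PAE1, RPT2b and RPN8a. The difference of the ask1 effect between tissues, tested directly against ASK1 WT, passed for 0 of 51 genes over 12 libraries (6.82% of all genes, 1 unadjusted p under 0.05, 0 calls by DESeq2). Over 11 libraries it passed for 4 (14.7% of all genes), with RPT1b more positive in open flowers (0.39 ± 0.12, edgeR adjusted p = 0.0498) and RPN8a, RPN9a and RPN11 more negative. RPN11 differed by -0.41 ± 0.11 between tissues (edgeR adjusted p = 0.0219). It had been above the controls in ask1 buds and stood at 210 and 147 CPM in ask1 open flowers against 159 to 168 in the controls.

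Paralog shares also differed between tissues, in 9 of 20 pairs with a p under 0.05 and in 11 over 11 libraries. In 5 pairs the libraries of both tissues did not overlap, in the same direction, in any of the 3 genotypes, which gives the smallest p of that test (exact permutation p = 0.00926). In open flowers RPT6b gained 5.85, PBB2 2.84 and RPN8b 1.94 percentage points, while RPT2b differed by -5.75 and RPN3b by -4.39. The share of RPT2b was 23.6% to 27.2% in the 6 bud libraries and 17.4% to 21.5% in the 6 open-flower libraries. That of RPN3b was 29.8% to 32.4% in buds and 25.3% to 27.9% in open flowers. PBE2, the minor gene of a catalytic pair, differed by -3.14 and RPN1b by -4.54 percentage points, and RPN2b gained 2.88 (exact permutation p = 0.0185 for each). PAE2 gained 2.03 (exact permutation p = 0.0463), a call that was lost under 9 alternative settings. Over 11 libraries the differences were 5.69 for RPT6b, 2.28 for PBB2, 2.04 for RPN8b, -6.04 for RPT2b and -4.01 for RPN3b. They were -3.48 for PBE2, -4.95 for RPN1b, 2.77 for RPN2b and 2.66 for PAE2. The PAE, RPT2, RPT6, RPN2 and RPN8 pairs had a p under 0.05 in both comparisons. RPT2b was lower in both, PAE2, RPN2b and RPN8b higher in both, and RPT6b was lower in ask1 and higher in open flowers.

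RPN3b, a lid subunit gene, lies 6507 bp from ASK1 on chromosome 1. It stood at 39.1 and 30.9 CPM in ask1 buds, 34.3 to 36.8 in control buds, and at 33.1 and 29.5 in ask1 open flowers against 31.4 to 36.9 in control open flowers. The groups overlapped in both tissues. Its share of the RPN3 pair differed by -0.349 percentage points in ask1 (exact permutation p = 0.6), and by 0.221 over 11 libraries (p = 0.76).

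Of 34 related genes that assemble, regulate or feed the proteasome, 1 rose and 0 fell over 12 libraries in ask1 buds against ASK1 WT, and likewise against Col-0 (25.9% and 21.1% of all genes changed). In open flowers 5 rose against ASK1 WT and 6 against Col-0, with 0 falls (30.0% and 27.2%). Over 11 libraries, against ASK1 WT, 7 genes rose with no fall in buds, and 3 genes rose while 2 fell among open flowers (41.4% and 33.5% of all genes). Against Col-0 the counts were 5 and 0, and 3 and 3 (38.0% and 30.1%). The polyubiquitin gene UBQ3 passed in each of these tests. UBQ3 stood at 289 and 307 CPM in ask1 buds against 168 to 208 in control buds, and at 388 and 345 in ask1 open flowers against 200 to 268. All 4 ask1 values lay above all controls. Its log2 fold change against ASK1 WT over 12 libraries was 0.67 ± 0.14 in buds and 0.87 ± 0.14 in open flowers (edgeR adjusted p = 0.00499 and 0.00113), and over 11 libraries 0.72 ± 0.09 and 0.73 ± 0.11 (edgeR adjusted p = 2.71e-05 and 0.000159). The other listed polyubiquitin genes differed among themselves in ask1 buds. UBQ10 (1180 and 1080 CPM against 755 to 1050 in control buds) and UBQ4 (121 and 109 against 83.3 to 108) lay above the controls. UBQ11 (529 and 562 against 573 to 643) lay below them, and UBQ14 (290 and 271 against 253 to 290) overlapped them. In open flowers none of these lay wholly above or below the controls. Polyubiquitin genes hold near-identical repeats, so their reads may have been split between them.

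The regulators that raise subunit genes together showed small differences. NAC53 stood at 18 and 21.2 CPM in ask1 buds against 15.9 to 19.6 in control buds and rose against ASK1 WT over 11 libraries by 0.32 ± 0.11 (edgeR adjusted p = 0.035), but not over 12. It also rose in open flowers against Col-0, by 0.45 ± 0.12 over 12 libraries (edgeR adjusted p = 0.0222) and 0.43 ± 0.13 over 11 (adjusted p = 0.0249). The open-flower levels of NAC53 were 23 and 24.3 CPM in ask1, 19.2 and 20.9 in ASK1 WT and 17.4 and 17.1 in Col-0. Its tests against Col-0 in buds and against ASK1 WT in open flowers are not printed here. NAC78 stood at 93.3 and 97 CPM in ask1 buds against 85.6 to 99.7 in control buds. In open flowers it stood at 74.8 and 91.1 CPM in ask1 against 90.2 to 102 in the controls. Among partners of the 20S barrel, the activator gene PA200 and the adaptor gene ECM29 rose in ask1 buds over 11 libraries, by 0.23 ± 0.07 and 0.21 ± 0.07 against ASK1 WT (edgeR adjusted p = 0.0148 and 0.0368). Over 12 libraries the values were 0.18 ± 0.26 and 0.16 ± 0.29, and neither passed. PA200 stood at 126 and 119 CPM in ask1 buds against 106 to 110 in control buds, without overlap. UMP1b, a paralog of the 20S assembly chaperone, fell in ask1 open flowers over 11 libraries, by 0.73 ± 0.20 on the log2 scale against ASK1 WT (edgeR adjusted p = 0.0121), and did not pass over 12, at -0.39 ± 0.20 (adjusted p = 0.166). It stood at 11.4 and 7.89 CPM there and at 12.5 and 12.8 CPM in ASK1 WT. Its more abundant paralog UMP1a did not fall, at 88.4 and 42.8 CPM in ask1 open flowers and 42.5 and 40.1 CPM in ASK1 WT.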

How the data were processed

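Read counts per gene were deposited by the authors for 12 libraries; reads were trimmed, aligned and counted with Trimmomatic, TopHat2 and HTSeq on TAIR10, per the submitters' processing notes, with versions, settings and strand not given in the sources used here. Of each library 7.6% to 9.71% of reads fell in the summary lines that name no gene, which stayed out of library sizes and tests. Members were matched by locus. Positions, exon lengths and promoters came from the TAIR10.1 RefSeq annotation. Counts were filtered with edgeR 4.0.16 (R 4.3.3; minimum count 10, minimum total 15), scaled by TMM and fitted with 1 mean per group over 12 libraries (robust quasi-likelihood, 6 residual degrees of freedom), with Benjamini-Hochberg adjustment over all 21890 genes at 0.05. The SE is the fold change over the square root of F. CPM used TMM-scaled totals, except for the floors, which used unscaled totals. Shares were tested by exact permutation of libraries (225 arrangements for genotype, 216 for tissue). The fit was tested on simulated data. Floors cover counting error only. Members of a contrast were named if 12 or fewer passed, otherwise the 6 largest in each direction. For open flowers against buds in the controls over 11 libraries, only the 6 genes called in both genotypes were named. UBQ3, NAC53, NAC78, PA200, ECM29 and UMP1b were picked for printing from the related list after their values were seen. The other polyubiquitin genes of that list and UMP1a are given beside them. The members were listed by annotation, but this set, the other lists and the tests were chosen with earlier results of these data known. DESeq2 1.42.0, other scalings, no filter, other fits, removal of a length trend and leaving out each library were alternatives.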

Additional observations from a re-analysis of the deposited data

How the results depend on the processing

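Counts of subunit genes called in ask1 depended on the fit, with the cause not tested. Where no share of all genes stands beside a count, the count shows only its dependence on the fit. In the order buds then open flowers against ASK1 WT, then the same against Col-0, the counts were 0, 6, 0 and 5. Removing the length trend gave 14, 20, 10 and 15, and a fit of only the libraries compared gave 2, 0, 2 and 0. Library totals gave 10 and 9 in open flowers, no filter gave 1 and 3, and RLE factors 3 against Col-0. Leaving out each library in turn gave ranges of 0 to 7, 0 to 37, 0 to 7 and 0 to 36. Removing the trend without replicate 1 of ask1 open flowers, chosen after seeing the data, gave 33, 10, 28 and 9, beside 50.1%, 38.6%, 44.1% and 36.2% of all genes. For open flowers against buds the count was 6 in ask1 and 0 for either control. Removing the length trend gave 3 and 4 in the controls, library totals 1 and 2, upper-quartile factors 1 and 1, DESeq2 1 and 1, and only the libraries compared 7 and 8, with 0 in ask1. No filter gave 3 in ask1. Leaving out each library gave 1 to 41, 0 to 8 and 0 to 13, and the trend removed without that library gave 12, 6 and 9. The tissue difference of the ask1 effect, 0, ranged from 0 to 31 and was 1 under that last setting. ASK1 WT against Col-0 stayed at 0 under every alternative run. Paralog pairs with p under 0.05 numbered 7 to 10 of 20 for ask1 and 8 to 11 for tissue. Of 510 log2 fold changes, 147 more changed sign without replicate 1 of ask1 open flowers while passing in neither fit. Against ASK1 WT in open flowers, positive genes went from 11037 to 9815 of all 21890, and positive members from 38 to 12 of 51. Those that took the opposite sign and passed in either fit when a library was left out were, against ASK1 WT in open flowers, PAE1 (-0.278 to 0.636), RPN7 (-0.254 to 0.333), RPT1b (-0.288 to 0.265), RPT4a (-0.348 to 0.246) and RPN8a (-0.341 to 0.225). Against Col-0 they were PAE1 (-0.378 to 0.543), RPN11 (-0.246 to 0.329) and RPN2b (-0.243 to 0.29). For ask1 open flowers against buds they were PAB2 (-0.281 to 0.454), PAE1 (-0.4 to 0.506), PBC2 (-0.33 to 0.62), PBE2 (-0.404 to 0.486) and RPN7 (-0.235 to 0.344). With the trend removed and replicate 1 of ask1 open flowers left out, PBB2 was 0.219 in buds against ASK1 WT, PAC1 0.22 and PBF1 0.25 in buds against Col-0, and PAE1 -0.362, PBE2 -0.366 and RPT6a -0.269 between tissues in ask1. No paired analysis was possible because the labels give no replicate numbers. With 2 libraries a group, small changes may be missed, and open-flower values in ask1 rest on 1 library when the deviating one is left out.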
